A study of Homo sapiens with 18 samples.

Results

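The 38 genes described here make up a panel for the integrated stress response and the unfolded protein response, taken by symbol from a table of 35025 genes. All 38 were found in that table, and all 38 were among the 15531 genes with enough counts to be tested. The panel was laid out in 3 arms named for regulators. The arms are a grouping for description and do not show that a regulator acted on a gene here. The ATF4 arm holds 21 genes (EIF2AK3, ATF4, ATF3, ATF5, DDIT3, CEBPB, CEBPG, ASNS, PSAT1, PHGDH, SHMT2, MTHFD2, AARS1, SLC7A11, SLC7A5, SLC3A2, CHAC1, TRIB3, SESN2, PPP1R15A and VLDLR). The IRE1/XBP1 arm holds 7 (ERN1, XBP1, DNAJB9, DNAJC3, EDEM1, SEL1L and PDIA6), and the ATF6 arm holds 10 (ATF6, HSPA5, HSP90B1, CALR, PDIA4, SDF2L1, HERPUD1, CRELD2, MANF and HYOU1). The last 2 arms overlap, since XBP1 and ATF6 share many targets.

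The transcripts were measured by RNA sequencing of bulk cultures of wild-type H1, a human embryonic stem cell line, differentiated to foregut endoderm, the tissue that gives rise to lung, liver and pancreas. There were 18 libraries in 6 groups of 3. The groups were untreated cells at day 6, cells given 2 µM all-trans retinoic acid (RA) for 24 h from day 5 to day 6 and collected at day 6, untreated cells at day 9, cells given the same RA treatment and collected at day 9, cells given 2 µM CHIR99021 and 50 ng/mL BMP4 for 72 h from day 6 to day 9, and cells given RA and then CHIR99021 with BMP4. CHIR99021 inhibits the kinase GSK3 and so activates Wnt signalling, BMP4 is a growth factor, and the labels describe their pairing as a mimic of the signals that induce respiratory fate. All groups came from 1 line, and nothing in the labels ties replicates to separate cultures, so the p values cover library-to-library spread only.

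The integrated stress response is set off when kinases such as PERK, encoded by EIF2AK3, phosphorylate the translation factor eIF2, which lowers protein synthesis overall while the transcription factor ATF4 is translated more. ATF4 and its partners then raise genes for amino acid import, serine and one-carbon metabolism and tRNA charging, together with feedback genes. The unfolded protein response senses misfolded protein in the endoplasmic reticulum (ER) through PERK, through IRE1 (ERN1), which splices XBP1 mRNA, and through ATF6, which is cut in the Golgi and enters the nucleus to raise chaperones. Much of this control acts on translation, splicing and cleavage, and gene-level counts show only the amount of transcript.

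The best-known DNA element of the ATF6 and XBP1 targets is the ER stress response element (ERSE), and RefSeq promoter sequences (GRCh38.p14) were available for 36 of the 38 genes. The 250 bases upstream of the start in each promoter entry were searched on both strands. Among the genes shown, that start lies inside the RefSeq span of the gene for ASNS, CEBPG and PDIA6. ERSE was searched as CCAAT and CCACG with 9 bases of any kind between them. It was found in 0.074% of 35116 promoters, in 4 of 10 genes of the ATF6 arm, in 2 of 7 of the IRE1/XBP1 arm and in none of the 19 ATF4-arm promoters available. These windows are shown because their genes carry several of the results given further on, with the match in capitals and each sequence written on the strand of its gene:
HSPA5, chr9:125241376-125241424, minus strand: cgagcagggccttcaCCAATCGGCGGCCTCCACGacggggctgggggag
HSP90B1, chr12:103930201-103930249, plus strand: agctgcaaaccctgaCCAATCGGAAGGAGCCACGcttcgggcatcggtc
HSP90B1, chr12:103930306-103930354, plus strand: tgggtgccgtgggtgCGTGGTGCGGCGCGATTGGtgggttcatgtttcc
CALR, chr19:12938369-12938417, plus strand: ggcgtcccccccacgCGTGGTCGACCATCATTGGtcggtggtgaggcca
CRELD2, chr22:49918539-49918587, plus strand: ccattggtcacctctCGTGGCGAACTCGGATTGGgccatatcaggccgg
XBP1, chr22:28800588-28800636, minus strand: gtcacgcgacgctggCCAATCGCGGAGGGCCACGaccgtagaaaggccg
PDIA6, chr2:10812838-10812886, minus strand: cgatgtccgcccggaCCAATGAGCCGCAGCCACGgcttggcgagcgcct

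A second element, ERSE-II, was searched as ATTGG and CCACG with 1 base of any kind between them and was found in 0.0513% of promoters, among them those of 3 further genes of the ATF6 arm:
HERPUD1, chr16:56932010-56932050, plus strand: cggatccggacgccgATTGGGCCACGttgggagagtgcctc
SDF2L1, chr22:21642099-21642139, plus strand: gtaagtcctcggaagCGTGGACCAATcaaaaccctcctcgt
HYOU1, chr11:119057259-119057299, minus strand: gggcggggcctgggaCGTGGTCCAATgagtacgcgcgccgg
HYOU1, chr11:119057365-119057405, minus strand: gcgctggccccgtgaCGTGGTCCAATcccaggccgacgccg
The C/EBP-ATF response element (CARE), which ATF4 is known to bind, was searched as TGATGNAA. It was found in 3.14% of promoters, in 5 of the 19 ATF4-arm promoters and in that of HERPUD1. The 5 ATF4-arm windows are shown because ATF3, ASNS, CHAC1 and CEBPG are among the genes described with full values below:
ATF3, chr1:212565201-212565238, plus strand: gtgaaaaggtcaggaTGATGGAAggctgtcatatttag
ASNS, chr7:97872454-97872491, minus strand: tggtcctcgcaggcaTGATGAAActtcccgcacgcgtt
CHAC1, chr15:40953247-40953284, plus strand: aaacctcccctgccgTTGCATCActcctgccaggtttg
CEBPG, chr19:33374056-33374093, plus strand: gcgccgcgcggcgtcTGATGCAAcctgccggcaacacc
AARS1, chr16:70289671-70289708, minus strand: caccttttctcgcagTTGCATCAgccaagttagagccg
No match overlapped another. A match describes letters in this window and is not evidence that a factor was bound there.

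HSPA5, which encodes the ER chaperone BiP, is the usual readout of the unfolded protein response, and its whole 250-base window (chr9:125241344-125241593, minus strand) is printed with the ERSE match in capitals.
HSPA5: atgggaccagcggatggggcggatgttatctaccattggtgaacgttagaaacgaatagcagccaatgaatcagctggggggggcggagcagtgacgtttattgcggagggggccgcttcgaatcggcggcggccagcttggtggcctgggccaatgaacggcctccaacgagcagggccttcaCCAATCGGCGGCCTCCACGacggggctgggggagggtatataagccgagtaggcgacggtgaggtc

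Total counts per library ran from 5792337 to 25371661, and the median variation between replicates beyond counting error was 8.52%. Values below are CPM, counts per 1000000 counts scaled by TMM factors, which compare 1 gene between libraries. Levels of different genes are compared only as TPM, transcripts per 1000000 transcripts, which accounts for length. The endoderm markers FOXA2, SOX17, GATA6, EPCAM and CDH1 summed to 690 to 1384 CPM over all libraries, and 4 neural markers to at most 7.37 CPM. The libraries of RA-treated cells at day 9 also held 1108 to 1585 CPM of 5 cardiac markers, against 8.84 to 69.96 CPM elsewhere, and 1872 to 2911 CPM of 5 mesenchyme markers, against 250 to 748 CPM elsewhere. All 5 cardiac markers, and all mesenchyme markers other than PDGFRA, were called higher there than in RA-treated cells of day 6 and than in cells given RA and then CHIR99021 with BMP4, and none of the 10 was at 0 throughout a group. The 6 hepatocyte and secretory markers (ALB, AFP, APOA1, APOA2, TTR and SERPINA1) summed to 7.15 to 37.4 CPM in untreated libraries and 59.7 to 569 CPM in treated ones. The 4 pluripotency markers (POU5F1, NANOG, LIN28A and DPPA4) summed to 999 to 3206 CPM, with POU5F1 itself at most 4.96 CPM and at 0 in every library given RA and then CHIR99021 with BMP4. The untreated day 9 libraries were uneven, with mesenchyme sums from 284 to 715 CPM. Their sums of 5 endothelium and blood markers (PECAM1, CDH5, KDR, HBB and HBA1) ran from 42.2 to 460 CPM. The part of this unevenness in the panel's values was not tested. In bulk cultures, fewer cells of a type and less RNA per cell cannot be told apart.

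Libraries of untreated and treated cells differed in a further way. Between 4 untreated libraries (day 6 replicate 2 and all of day 9) and the 12 treated libraries, 69 genes were at least 10-fold apart, a set chosen for that difference, and 65 of them were pseudogenes (94.2%, compared with 3.63% among the 13718 genes averaging 2 CPM or more). None was a panel gene. Of the counts of these 69 genes, the share in the 37 genes high in treated libraries was 94.0% to 95.6% in every treated library, 0.34% to 0.60% in the untreated day 9 libraries, and 8.97%, 0.38% and 17.6% in the 3 untreated day 6 libraries. In comparisons of untreated with treated cells this difference and the treatment cannot be told apart. The 3 comparisons among treated libraries, all with shares from 94.0% to 95.6%, are given first.

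Replicate 1 of the untreated day 9 cells stood apart in these genes. It was the highest of its group for 20 of 21 ATF4-arm genes (95.2%, against 35.3% of all tested genes) and more than 1.3-fold above both others for 12 of 21 (57.1%, against 5.85%). Its total count was also the largest of the 18. The counts that rest on the untreated day 9 group, and the log2 differences of most called genes named beside them, are given with and without it.

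CALR had the highest level of the panel, 745 TPM averaged over the 18 libraries, followed by the amino acid transporter gene SLC7A5 at 459 TPM, the disulfide isomerases PDIA6 at 369 TPM and PDIA4 at 366 TPM, HSP90B1 at 233 TPM and ATF4 at 232 TPM. The lowest were ERN1, at 3.2 TPM, and the asparagine synthetase gene ASNS, at 1.42 TPM. All 38 genes differed somewhere among the 6 groups, as did 92.8% of all tested genes. RA-treated cells at day 9 had the highest mean for 24 of the 38 genes (63.2%, against 24.2% of all tested genes). Cells given RA and then CHIR99021 with BMP4 had the lowest mean for 8 of the 10 ATF6-arm genes (16.2% of all tested genes were lowest there), and cells given CHIR99021 with BMP4 alone had the lowest for 11 of the 21 ATF4-arm genes (13.3% of all tested genes).

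**Figure D1:**
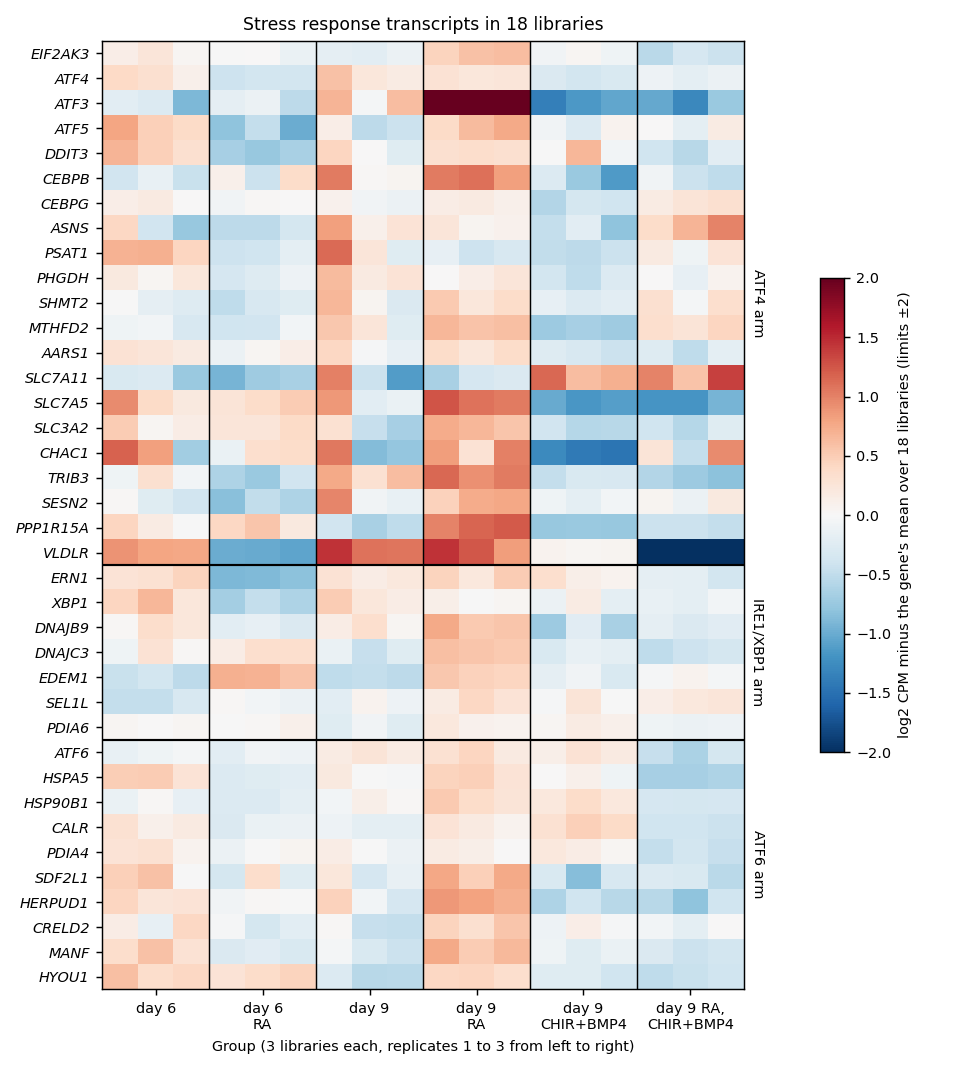
Each row is a panel gene and each column a library, coloured by log2 CPM minus the gene's mean over 18 libraries, with colours limited at 2 in either direction. The columns of RA-treated cells at day 9 are red for most rows, and ATF3 there and VLDLR in cells given RA and then CHIR99021 with BMP4 pass the limit of the scale.

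RA-treated cells were compared first with themselves in time, at day 6, when the treatment ended, and at day 9. By edgeR's quasi-likelihood test with Benjamini-Hochberg adjusted p below 0.05, 28 of the 38 genes rose and 1 fell. Of all tested genes 58.8% were called, 28.5% as risen and 30.3% as fallen. The median log2 difference was 0.64 over the panel and -0.03 over all tested genes. In the ATF4 arm 15 of 21 genes rose, in the IRE1/XBP1 arm 5 of 7 rose and 1 fell, and in the ATF6 arm 8 of 10 rose.

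Among the transcription factors, ATF3, a stress-induced member of the ATF family (chr1:212565407-212620777, GRCh38.p14), changed most. Its level was 20.1, 21 and 15.9 CPM in the RA-treated libraries of day 6 and 146, 121 and 131 CPM in those of day 9. Every day 9 library lay far above every day 6 library, and the log2 difference was 2.78 ± 0.18 (SE, n = 3 against 3, 6.89-fold, adjusted p = 3.52e-10). ATF4 itself (chr22:39520559-39522686) rose from 286 ± 5.02 to 445 ± 9.5 CPM (SD, n = 3), a log2 difference of 0.64 ± 0.09. DDIT3, which encodes the pro-apoptotic factor CHOP, read 6.95, 6.54 and 7.08 CPM at day 6 and 13.8, 14.1 and 13.8 CPM at day 9. The DDIT3 groups did not overlap, and its level rose 2.03-fold (log2 1.02 ± 0.19, adjusted p = 8.09e-05). ATF5 rose 2.5-fold and CEBPB, at only 6.99 ± 0.679 CPM, 1.97-fold.

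The kinase gene EIF2AK3 rose 1.51-fold, to 90.1 ± 5.19 CPM. Of the feedback genes, TRIB3, a pseudokinase that restrains ATF4 and CHOP, rose 3.06-fold, SESN2, a leucine sensor upstream of mTORC1, 2.46-fold and PPP1R15A, which encodes GADD34, the phosphatase subunit that reverses eIF2 phosphorylation, 1.66-fold. VLDLR, a lipoprotein receptor and reported ATF4 target, read 42.9, 42.2 and 41.1 CPM at day 6 and 232, 202 and 152 CPM at day 9. The lowest day 9 library of VLDLR was still above all of day 6, and the difference was 4.63-fold (adjusted p = 5.5e-12). Of the metabolic genes, MTHFD2 rose 1.85-fold, SHMT2 1.66-fold and PHGDH 1.28-fold, while PSAT1 read 85.3 ± 7.36 and 87.3 ± 7.6 CPM and was not called (adjusted p = 0.923). MTHFD2 and SHMT2 act in mitochondrial one-carbon metabolism, and PHGDH and PSAT1 in serine synthesis. SLC7A5 rose 1.68-fold and AARS1, the alanyl-tRNA synthetase gene, 1.23-fold. The 6 ATF4-arm genes that were not called were CEBPG, ASNS, PSAT1, SLC7A11, SLC3A2 and CHAC1.

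In the IRE1/XBP1 arm, the sensor gene ERN1 read 10.2, 10.3 and 10.8 CPM at day 6 and 26, 21.9 and 27 CPM at day 9. Every day 9 library lay above day 6, a 2.4-fold rise (log2 1.26 ± 0.11, adjusted p = 1.78e-09). XBP1 rose 1.55-fold, as total transcript with spliced and unspliced forms together, and the co-chaperone genes DNAJB9 and DNAJC3 rose 1.77-fold and 1.21-fold. EDEM1, which hands misfolded glycoproteins over for degradation, was the exception of this arm: it fell 1.13-fold, from 83.8 ± 4.19 to 74.1 ± 3.01 CPM (adjusted p = 0.0363).

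In the ATF6 arm, HSPA5 read 670, 688 and 702 CPM at day 6 and 1104, 1133 and 982 CPM at day 9. The HSPA5 groups were well apart, with a rise of 1.56-fold (log2 0.64 ± 0.08, adjusted p = 2.21e-07). The secreted ER stress protein gene MANF rose 1.88-fold, the degradation factor gene HERPUD1 1.75-fold, SDF2L1 1.6-fold, CRELD2 1.55-fold, HSP90B1, which encodes GRP94, 1.55-fold, ATF6 1.36-fold and CALR, the calcium-binding chaperone, 1.27-fold. PDIA4 and HYOU1 had log2 differences of 0.12 ± 0.08 and 0.03 ± 0.08 and were not called.

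Further lists of the same pathways were counted in these libraries, where 28.5% of all tested genes rose and 30.3% fell. The ER translocation list, at 60% called, was near the 58.8% of all tested genes. Of 12 tRNA synthetase genes 6 rose and 2 fell, with CARS1 at a log2 difference of 0.84 and SARS1 at 0.82. Of 16 other amino acid and one-carbon genes 8 rose and 4 fell, led by the transporters SLC1A4 (1.62) and SLC7A1 (1.35). Of 15 genes of ER translocation 8 rose and 1 fell, led by SEC61B (1.05) and SEC61G (1.0), subunits of the ER channel. Of 15 tested genes of ER folding 8 rose and 2 fell, among them FKBP14 at 1.46 and ERO1B at -1.33. Of 12 genes of ER-associated degradation 7 rose and 3 fell, with UBE2J1 at 1.18 and DERL3 at -1.86. Among 7 genes of ATF6 processing and its relatives 5 rose and 1 fell, and the ER-bound factor genes CREB3L2 (1.72) and CREB3L1 (1.52) led. Of 12 genes for the other eIF2 kinases, eIF2 and its exchange factor 4 rose and 2 fell. Of the 29 panel calls, 24 held whichever 1 of the 18 libraries was left out, and AARS1, DNAJC3, EDEM1, SDF2L1 and SLC7A5 did not. Without replicate 1 of the RA-treated day 6 cells none of these 5 was called (adjusted p = 0.0575 to 0.121). The cardiac and mesenchyme marker sums given above were also higher in the day 9 group, the hepatocyte and secretory sum was 468 to 569 CPM at day 6 and 185 to 287 CPM at day 9, and the pluripotency sum was 1858 to 1951 CPM and 999 to 1075 CPM. The part of these markers in the differences was not tested.

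**Figure D2:**
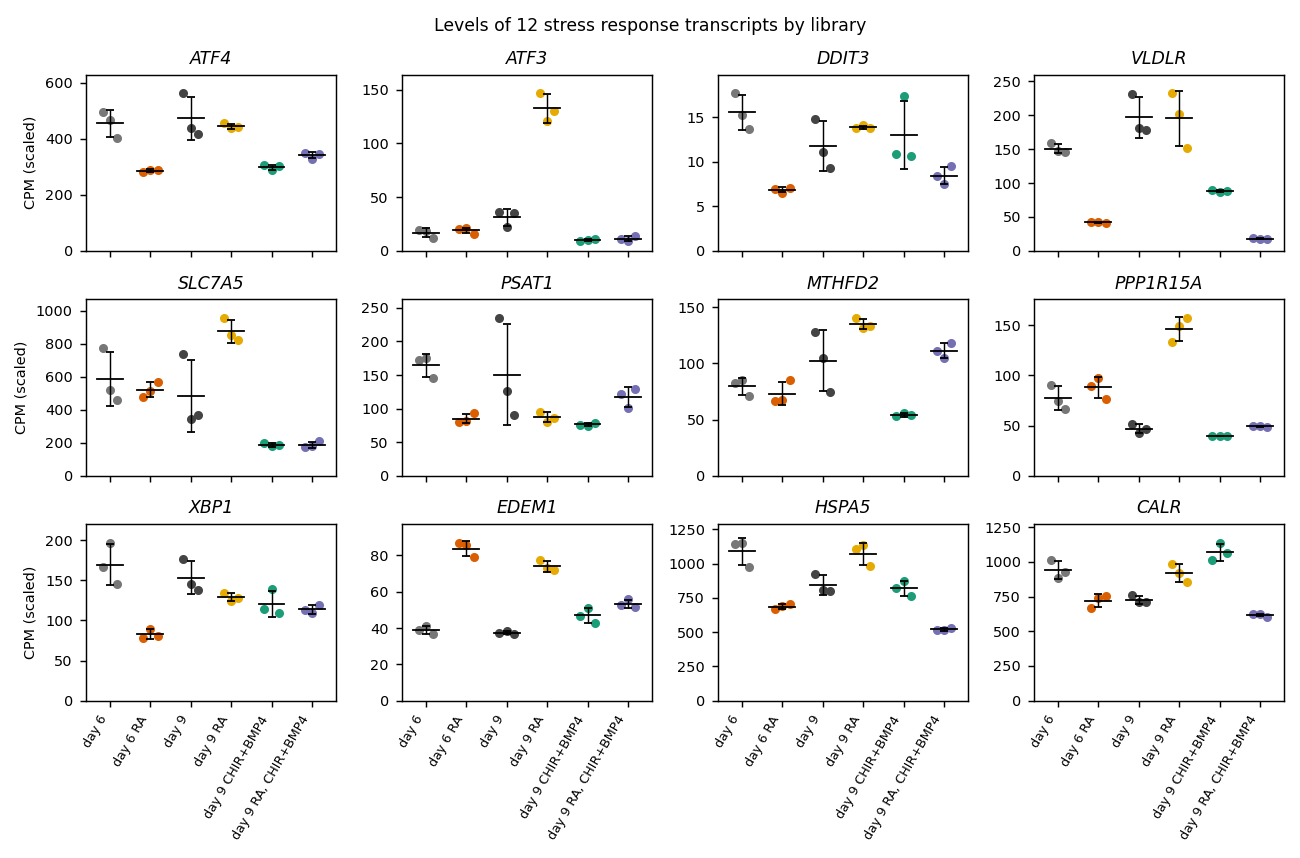
Points are libraries, with the group mean (long bar) and SD, in CPM scaled by TMM factors on axes that start at 0. ATF3 and PPP1R15A are highest in all 3 RA-treated libraries of day 9, while HSPA5 is lowest in the 3 libraries given RA and then CHIR99021 with BMP4.

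CHIR99021 with BMP4 after RA was compared with RA alone at day 9. Here 28 of the 38 genes fell and 1 rose. Of all tested genes 64.4% were called, 32.3% as fallen and 32.1% as risen. The median log2 difference was -0.63 over the panel and 0.02 over all tested genes. In the ATF4 arm 13 of 21 fell, in the IRE1/XBP1 arm 5 of 7 fell, and in the ATF6 arm all 10 fell. This comparison shares the RA-treated day 9 libraries with the one before.

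ATF3 read 146, 121 and 131 CPM after RA alone and 11.2, 9.34 and 13.6 CPM after RA and CHIR99021 with BMP4. The groups were far apart, and ATF3 fell 11.8-fold (log2 -3.55 ± 0.19, adjusted p = 1.96e-11). VLDLR (chr9:2621787-2660056) went from 232, 202 and 152 CPM to 19.4, 17.4 and 17.5 CPM. All 3 libraries with CHIR99021 and BMP4 were low and close together, and VLDLR fell 10.7-fold (log2 -3.41 ± 0.13, adjusted p = 1.83e-14). SLC7A5, the light chain of a large neutral amino acid transporter, fell from 876 ± 69.1 to 188 ± 19 CPM, or 4.66-fold, and its heavy chain gene SLC3A2 fell 2.08-fold.

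The feedback genes fell as well: TRIB3 3.28-fold, PPP1R15A 2.98-fold, from 133, 149 and 157 CPM to 49.9, 49.4 and 48.2 CPM, and SESN2 1.54-fold. The SESN2 call was the only one of the 29 lost when 1 library was left out, in 4 of the 18 such fits: without replicate 2 or 3 of RA alone, or replicate 1 or 2 of both treatments (adjusted p = 0.066 to 0.0848). Of the regulators, CEBPB fell 2.39-fold, EIF2AK3 1.99-fold, DDIT3 1.65-fold, ATF5 1.53-fold and ATF4 1.3-fold, to 341 ± 10.8 CPM. AARS1 fell 1.56-fold.

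SLC7A11, the cystine importer gene, was the 1 gene that rose. It read 25.3, 31.6 and 32.4 CPM after RA alone and 79, 58.9 and 103 CPM after both treatments, a 2.65-fold rise without overlap (log2 1.41 ± 0.41, adjusted p = 0.00853). The genes of asparagine, serine and one-carbon metabolism were not called: ASNS had a log2 difference of 0.52 ± 0.27, PSAT1 of 0.43 ± 0.25, PHGDH of -0.16 ± 0.10, SHMT2 of -0.16 ± 0.18 and MTHFD2 of -0.28 ± 0.14. CEBPG and CHAC1, a glutathione-degrading enzyme gene, were not called either, at 0.10 ± 0.08 and -0.42 ± 0.50.

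In the IRE1/XBP1 arm DNAJC3 fell 1.98-fold, DNAJB9 1.79-fold, ERN1 1.54-fold, EDEM1 1.39-fold and PDIA6 1.17-fold. XBP1 (-0.18 ± 0.11 on the log2 scale) and SEL1L (-0.09 ± 0.09), a scaffold of ER-associated degradation, were not called.

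In the ATF6 arm HSPA5 read 1104, 1133 and 982 CPM after RA alone and 514, 514 and 532 CPM after both treatments. The latter libraries lay close together below all others of the comparison, and HSPA5 fell 2.06-fold (log2 -1.05 ± 0.08, adjusted p = 6.91e-11). HERPUD1 fell 2.59-fold, SDF2L1 2.01-fold, MANF 1.99-fold, HYOU1 1.8-fold, ATF6 1.73-fold, HSP90B1 1.65-fold, CALR 1.49-fold, PDIA4 1.45-fold and CRELD2 1.44-fold. Of the 9 genes of both ER arms with an ERSE or ERSE-II match, shown above, 8 fell with a median log2 difference of -0.73, and of the 8 without one 7 fell with a median of -0.71.

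The related lists were not alike. In this comparison 32.3% of all tested genes fell and 32.1% rose, 64.4% in all. Near that share were the lists of ER translocation (60% called), amino acid and one-carbon genes (62.5%) and ER folding (66.7%). The list of other eIF2 kinases and eIF2 (66.7%) was near it too. Of 12 tRNA synthetase genes 9 fell and 1 rose, with WARS1 at -1.25, GARS1 at -0.80 and SARS1 at -0.77 on the log2 scale. Of 15 tested ER folding genes 9 fell and 1 rose, with PDIA5 at -1.38, and of 15 ER translocation genes 8 fell and 1 rose, with SEC61B at -1.27 and SPCS2 at 1.17. Of 12 ER-associated degradation genes 8 fell and 2 rose. EDEM2 (-1.09) and VCP (-1.06) were among the former and DERL3 (1.58) among the latter. CREB3L1 fell by 3.13 and CREB3L2 by 1.98 on the log2 scale, 2 of the 4 genes that fell among 7 ATF6 relatives. Amino acid and one-carbon genes were divided, with 7 that fell and 3 that rose of 16, among them ALDH1L2 (-2.28), SHMT1 (1.11) and MTHFD1 (1.09). Of 8 tested further targets of the integrated stress response 4 fell and 4 rose, and of 12 genes for the other eIF2 kinases, eIF2 and its exchange factor 6 fell and 2 rose. The cardiac sum was 1108 to 1585 CPM after RA alone and 8.84 to 10.3 CPM after both treatments, and the mesenchyme sum was 1872 to 2911 CPM and 250 to 276 CPM. The hepatocyte and secretory sum was 185 to 287 CPM and 86.6 to 114 CPM, with 3 of 5 tested markers called lower and 1 higher. The pluripotency sum was 999 to 1075 CPM and 1184 to 1309 CPM, with 2 of 3 tested markers called higher and 1 lower. The part of these markers in the falls was not tested.

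The third comparison among treated libraries asked what RA changed in cells that then received CHIR99021 with BMP4. Its calls were split: 8 of the 38 genes were higher after RA and 10 were lower, 47.4% in all against 43.3% of all tested genes (21.2% higher and 22.1% lower), with medians of 0.04 and -0.01. On log2 TPM with limma the split was 11 higher and 8 lower. There the median of all genes moved to 0.07, and 3960 of 6368 calls over all genes were higher. In the ATF4 arm 6 genes of 21 were higher and 3 lower, 42.9% in all and near the share of all tested genes. In the IRE1/XBP1 arm 2 of 7 were higher and 2 lower (57.1%), and in the ATF6 arm 5 of 10 were lower (50%).

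Among the higher genes were several of amino acid and one-carbon metabolism. MTHFD2 (chr2:74198615-74217565) read 53, 55.8 and 53.8 CPM without RA and 111, 105 and 118 CPM after RA. Both groups were tight and apart, with MTHFD2 2.06-fold higher after RA (log2 1.04 ± 0.14, adjusted p = 9.38e-06). ASNS, at low levels, read 1.95, 2.33 and 1.55 CPM and 3.49, 4.32 and 5.38 CPM, 2.24-fold higher (adjusted p = 0.000913). CEBPG, a C/EBP partner of ATF4, was 1.61-fold higher, PHGDH 1.27-fold and PPP1R15A 1.24-fold. CHAC1 read 2.32, 2.11 and 2.02 CPM and 6.7, 4.02 and 10.8 CPM, 3.23-fold higher with a wide error (log2 1.69 ± 0.57, adjusted p = 0.0276). PSAT1 and SHMT2, at log2 differences of 0.61 ± 0.25 and 0.44 ± 0.18, and ATF4 itself, at 0.19 ± 0.09, were not called (adjusted p = 0.0668, 0.0675 and 0.087).

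VLDLR moved the other way within the same arm. It read 89.1, 87.2 and 88.4 CPM without RA and 19.4, 17.4 and 17.5 CPM after RA, 4.83-fold lower (log2 -2.27 ± 0.13, adjusted p = 3.31e-11). DDIT3 was 1.51-fold lower and EIF2AK3 1.32-fold. DDIT3 was uneven without RA, at 10.9, 17.4 and 10.6 CPM, and without replicate 2 of that group its log2 difference was -0.36 (adjusted p = 0.0852).

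In the ATF6 arm, CALR, HSPA5, HSP90B1, PDIA4 and ATF6 were lower after RA. CALR (chr19:12938609-12944489) read 1013, 1135 and 1063 CPM without RA and 623, 623 and 606 CPM after RA, with every library of the second group below every one of the first. The difference was 1.73-fold (log2 -0.79 ± 0.07, adjusted p = 5.91e-09). HSPA5 was 1.58-fold lower, HSP90B1 1.52-fold, PDIA4 1.48-fold and the sensor gene ATF6 1.59-fold. SDF2L1, HERPUD1, CRELD2, MANF and HYOU1 had log2 differences between -0.20 and 0.10 and were not called.

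In the IRE1/XBP1 arm ERN1 was 1.33-fold and PDIA6 1.15-fold lower, while DNAJB9 was 1.24-fold and EDEM1 1.14-fold higher. XBP1 read 121 ± 15.9 and 114 ± 5.14 CPM and was not called. The calls of CHAC1, DDIT3, DNAJB9, EDEM1, PDIA6 and PPP1R15A did not hold in every fit that left out 1 library, and the other 12 did. The CHAC1 call was lost without any 1 of 5 of the 6 libraries compared (adjusted p = 0.0604 to 0.0899). EDEM1 had a log2 difference of 0.13 without replicate 3 of CHIR99021 with BMP4 alone (adjusted p = 0.231), and DNAJB9 had one of 0.22 without replicate 1 (adjusted p = 0.187).

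**Figure D3:**
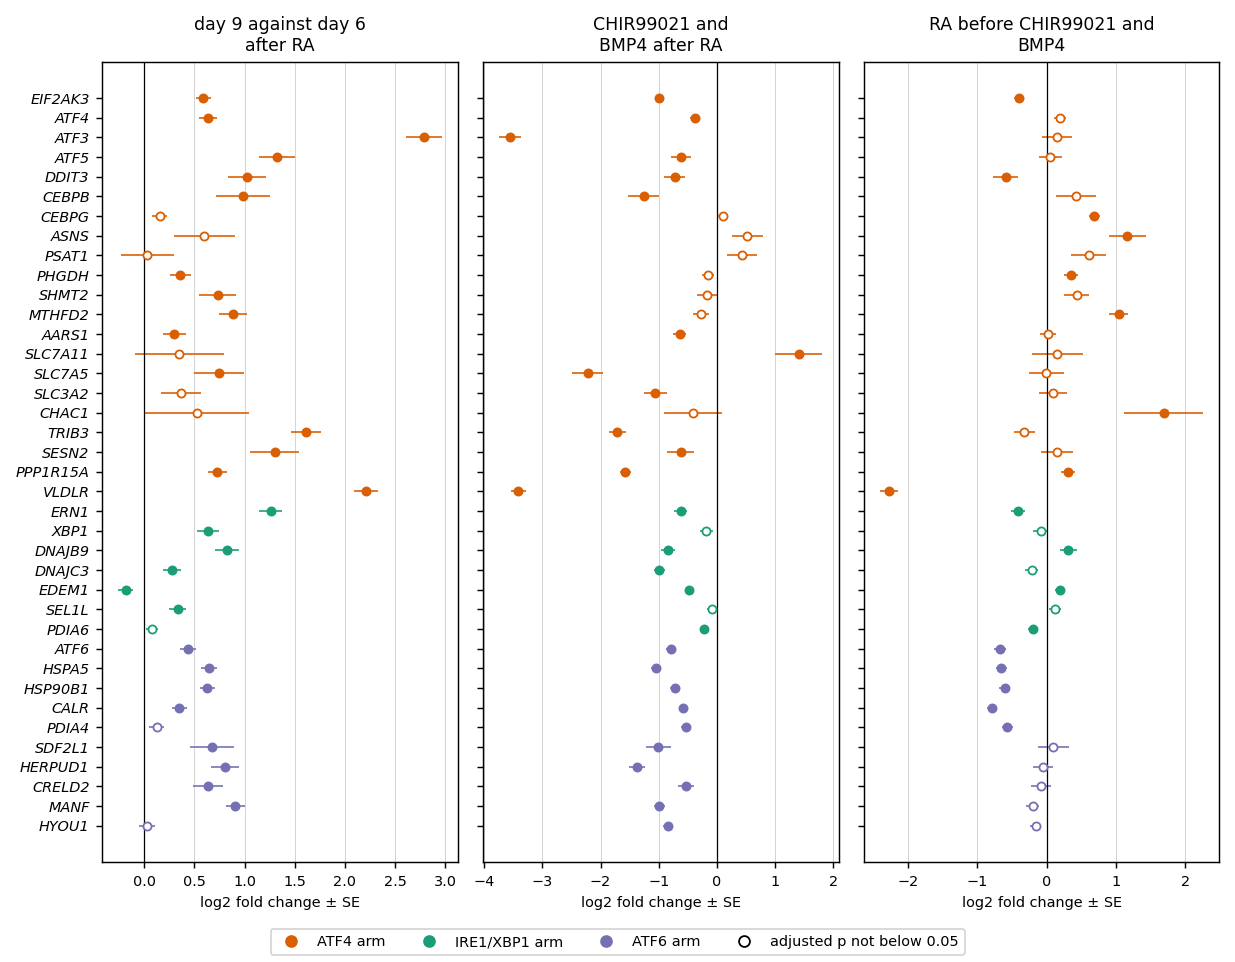
Log2 differences with their SE for the 38 genes in the 3 comparisons among treated libraries, by arm. Filled points had an adjusted p below 0.05 and open ones did not. In the third panel CALR, ATF6, HSPA5, HSP90B1 and PDIA4 lie left of 0, and MTHFD2, ASNS and CHAC1 lie right of it.

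The related lists in the same libraries also differed in direction. Here 21.2% of all tested genes were higher after RA and 22.1% lower, 43.3% in all. Amino acid and one-carbon genes (43.8% called) and ER folding genes (46.7%) were near that share. Of 12 tRNA synthetase genes 9 were higher after RA and 1 lower, with MARS1 at 0.58, CARS1 at 0.50 and GARS1 at 0.40 on the log2 scale. Of 16 amino acid and one-carbon genes 5 were higher and 2 lower, led by the alanine aminotransferase gene GPT2 (0.96). Among 8 tested further targets of the integrated stress response 3 were higher, including STC2 (2.06, from 30.3 ± 3.13 to 126 ± 7.9 CPM), which encodes stanniocalcin 2, and BBC3 (1.3). Of 15 tested ER folding genes 6 were lower and 1 higher, with the disulfide isomerase gene P4HB at -0.72, and of 12 degradation genes 5 were lower and 1 higher, with OS9 at -0.61. ER translocation genes went the other way, 6 higher and 2 lower of 15. CREB3L1 and CREB3L2 were lower by log2 differences of -1.53 and -1.52, and 4 of 7 ATF6 relatives were lower. Markers of cell types differed between these groups too. Of 5 endoderm markers 4 were called higher after RA and of 5 mesenchyme markers 3 were lower and 1 higher. The cardiac sum was 44.7 to 58.5 CPM without RA and 8.84 to 10.3 CPM after it, with 2 of 5 markers called lower. The hepatocyte and secretory sums of 59.7 to 93.6 CPM and 86.6 to 114 CPM overlapped, with 2 of 5 tested markers called higher and 1 lower, and 2 of 3 tested pluripotency markers were lower. Their part in the panel's differences was not tested.

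The effect of RA was then set side by side at day 6 and day 9, each against untreated cells of the same day. At day 6, 14 of the 38 genes were lower with RA and 2 higher, 42.1% in all against 48.7% of all tested genes (25.3% higher and 23.4% lower), with medians of -0.31 and 0.00. At day 9, 21 were higher and 3 lower, 63.2% against 65.1% (32.5% in each direction), with medians of 0.36 and -0.02. Both counts were near or below the share over all genes, and most calls were lower at day 6 and higher at day 9. On log2 TPM the median of all genes itself moved to 0.17 and 0.26, and the splits became 5 higher and 10 lower at day 6 and 32 higher of 32 called at day 9. With the pseudogene share as a covariate, edgeR called 0 of 38 genes at either day (3 and 8 at an unadjusted p below 0.05), and over all genes 92 and 65. Cell type markers moved with RA at both days. All 5 tested hepatocyte and secretory markers were called higher at day 6 and at day 9, with median log2 differences of 4.94 and 5.0. Their sum was 21.8 to 37.4 CPM without and 468 to 569 CPM with RA at day 6, and 7.15 to 20.4 CPM without and 185 to 287 CPM with RA at day 9. Of 5 endoderm markers 4 were higher at each day. The pluripotency sum was 2663 to 3206 CPM without and 1858 to 1951 CPM with RA at day 6, and 2051 to 2340 CPM and 999 to 1075 CPM at day 9. Of 3 tested pluripotency markers 1 was called lower at day 6 and 2 at day 9. The cardiac and mesenchyme sums were 45.2 to 62.2 CPM and 673 to 748 CPM without RA at day 6, and 33.1 to 36.1 CPM and 370 to 516 CPM with it. At day 9 both sums were higher with RA, as given above. The single markers were split. At day 6, 1 cardiac marker of 5 was called higher and 2 lower, and so were 1 and 2 of 5 mesenchyme markers. At day 9, 3 cardiac markers were called higher and 1 lower, and 4 mesenchyme markers higher. The part of these markers in the effects of RA was not tested.

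The difference between the RA effects of the 2 days was tested by an interaction term. It was called for 27 of the 38 genes, and in all 27 the effect of RA was higher at day 9. Of all tested genes 50.9% were called, 24.9% with an effect higher at day 9 and 26% with one lower. The panel median was 0.73 and that of all tested genes -0.04. With the pseudogene share as a covariate 24 genes were called. That share differed between untreated and treated cells at both days and so largely cancels in this term. The fit with it therefore cannot decide its part here. Without untreated day 9 replicate 1 there were 31. Of the 27, 21 held whichever library was left out, and AARS1, CEBPG, MTHFD2, PDIA4, SLC3A2 and SLC7A5 did not. By arm, 13 of 21, 5 of 7 and 9 of 10 genes were called.

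ATF5, a mitochondrial stress factor, had the largest such difference. Its level at day 6 was 18.5, 15 and 14.1 CPM without and 6.18, 7.68 and 5.38 CPM with RA, and at day 9 it was 11.8, 7.49 and 7.95 CPM without and 14, 16.7 and 18.1 CPM with RA. The effect on ATF5 was -1.27 ± 0.18 at day 6 and 0.76 ± 0.17 at day 9 on the log2 scale, and the interaction was 2.03 ± 0.25 (adjusted p = 5.27e-07). TRIB3, DNAJB9, HSPA5, CALR and MANF were likewise lower with RA at day 6 and higher at day 9, each called in both. MANF changed by -0.69 and then 0.85, HSPA5 by -0.67 and 0.35, CALR by -0.38 and 0.34, TRIB3 by -0.64 and 0.43 and DNAJB9 by -0.42 and 0.43. Without untreated replicate 1 the day 9 differences were 1.08 for ATF5, 1.0 for MANF, 0.42 for HSPA5, 0.37 for CALR, 0.56 for TRIB3 and 0.41 for DNAJB9, and the ATF5 interaction was 2.36.

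ATF3 and PPP1R15A were not called at day 6, at 0.20 ± 0.20 and 0.20 ± 0.10. At day 9 they were 4.13-fold and 3.09-fold higher with RA. Untreated libraries of day 9 read 36.5, 22.1 and 35.1 CPM for ATF3, all below the RA-treated ones. SLC7A5 was 1.8-fold, SLC3A2 1.79-fold and EIF2AK3 1.65-fold higher with RA at day 9, and MTHFD2 1.3-fold. With and without untreated replicate 1 the log2 differences were 2.05 and 2.21 for ATF3, 1.63 and 1.71 for PPP1R15A, 0.85 and 1.3 for SLC7A5, 0.84 and 1.22 for SLC3A2, 0.72 and 0.71 for EIF2AK3 and 0.37 and 0.59 for MTHFD2. The MTHFD2 call was lost without untreated day 9 replicate 2 or 3, or without RA-treated day 9 replicate 1 or 3 (adjusted p = 0.0502 to 0.0996). Without untreated replicate 3 its log2 difference was 0.20.

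VLDLR, DDIT3 and ERN1 were lower with RA at day 6 and not called at day 9. VLDLR read 159, 148 and 146 CPM without RA and 42.9, 42.2 and 41.1 CPM with RA at day 6, 3.58-fold lower, and its log2 difference at day 9 was -0.03 ± 0.11. DDIT3 was 2.27-fold and ERN1 2.33-fold lower at day 6, and the interactions of all 3 genes were called, at 1.81, 1.36 and 1.38 (without untreated day 9 replicate 1, 1.96, 1.63 and 1.43). ATF4 was 1.59-fold lower with RA at day 6, at 496, 469 and 402 CPM without and 281, 289 and 289 CPM with RA, and was not called at day 9 (log2 -0.09 ± 0.09).

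The IRE1/XBP1 arm was divided at day 6. XBP1 (chr22:28794560-28800569) read 167, 196 and 145 CPM without and 77.5, 89.8 and 80.7 CPM with RA, 2.04-fold lower. EDEM1 (chr3:5187707-5219958), a target of XBP1, read 39, 41.1 and 36.9 CPM and 86.7, 85.7 and 79 CPM, 2.16-fold higher (log2 1.11 ± 0.08, adjusted p = 3.7e-11). The EDEM1 groups were far apart, and at day 9 it was again 1.97-fold higher, at 37.3, 38.3 and 37 CPM without and 77.5, 73 and 71.8 CPM with RA. Its interaction was not called (log2 -0.13 ± 0.11, adjusted p = 0.341). SEL1L was 1.29-fold higher with RA at day 6 and 1.29-fold at day 9. The day 9 log2 differences with and without untreated replicate 1 were 0.98 and 0.97 for EDEM1 and 0.37 and 0.30 for SEL1L.

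The 3 genes lower with RA at day 9 were PSAT1, PHGDH and XBP1. PSAT1 differed by -0.83 ± 0.25, with untreated libraries at 234, 126 and 90.7 CPM, of which replicate 1 stood high, and RA-treated ones at 95.6, 80.7 and 85.6 CPM. Without untreated replicate 1 the PSAT1 difference was -0.32 (adjusted p = 0.0422). PHGDH and XBP1, at -0.25 and -0.26, turned positive on log2 TPM, at 0.10 and 0.089, and were -0.10 and -0.14 without untreated replicate 1 (adjusted p = 0.387 and 0.287). Without untreated day 9 replicate 1, 27 genes were higher with RA at day 9 and 1 lower. In the ATF6 arm 8 of 10 were higher at day 9, from CALR at 1.26-fold to MANF at 1.8-fold, and ATF6 and PDIA4 were not called.

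**Figure D4:**
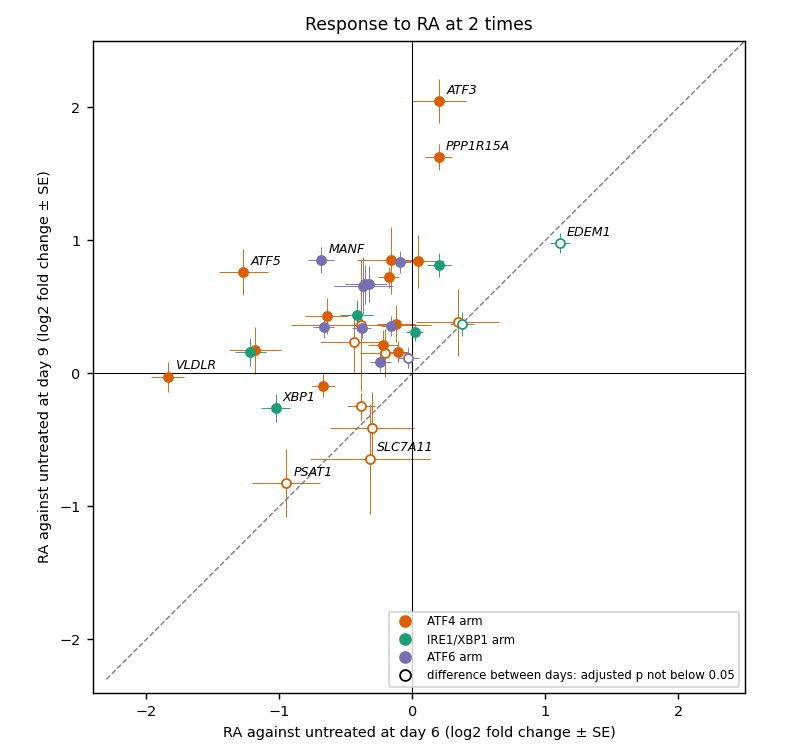
The effect of RA at day 9 is plotted against that at day 6 for the 38 genes (log2 differences with SE), with the line of equal effects dashed and points open where the difference between the days had an adjusted p of 0.05 or more. Most points lie above the line, and EDEM1 lies near it.

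CHIR99021 with BMP4 without RA was compared with untreated cells of day 9. Here 17 genes were lower and 4 higher, 55.3% in all against 42.8% of all tested genes (21% higher and 21.8% lower), with medians of -0.34 and 0.00. The lower genes were mostly of the ATF4 arm, 14 of 21, while in the ATF6 arm 1 was lower and 2 were higher. On log2 TPM, where the median of all genes moved to 0.21, the split was 13 higher and 10 lower. Without untreated day 9 replicate 1 it was 6 higher and 12 lower with a median of -0.07, and with the pseudogene share as a covariate edgeR called 0 genes (2 at an unadjusted p below 0.05).

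ATF3 was 3.15-fold lower, at 36.5, 22.1 and 35.1 CPM in untreated cells and 8.83, 10.3 and 11.1 CPM with CHIR99021 and BMP4, and the groups did not overlap. SLC7A5 was 2.58-fold, VLDLR 2.25-fold, PSAT1 2.01-fold, TRIB3 1.95-fold, MTHFD2 1.92-fold, PHGDH 1.69-fold and ATF4 1.58-fold lower. With and without untreated replicate 1 the log2 differences were -1.66 and -1.49 for ATF3, -1.37 and -0.92 for SLC7A5, -1.17 and -1.02 for VLDLR, -1.01 and -0.50 for PSAT1, -0.96 and -0.83 for TRIB3, -0.94 and -0.72 for MTHFD2, -0.76 and -0.60 for PHGDH and -0.66 and -0.52 for ATF4. ATF4 read 562, 438 and 419 CPM in untreated cells and 306, 290 and 303 CPM with CHIR99021 and BMP4. CHAC1 had the largest log2 difference, -1.74 ± 0.56, but the untreated libraries were at 11.6, 3.06 and 3.28 CPM, and without replicate 1 it was -0.56 (adjusted p = 0.532). The calls of ASNS, CEBPB, HSP90B1, PPP1R15A and XBP1 were also lost when 1 library or another was left out, among them each of these 5 without untreated replicate 1 (adjusted p = 0.0688 to 0.262), and PPP1R15A came to 0.00 on log2 TPM. The hepatocyte and secretory sum was 7.15 to 20.4 CPM in untreated cells and 59.7 to 93.6 CPM with CHIR99021 and BMP4, with 4 of 5 tested markers called higher. The pluripotency sum was 2051 to 2340 CPM and 1328 to 1502 CPM, with 1 of 3 tested markers called lower. The part of these markers was not tested.

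In the ER arms HERPUD1 was 1.57-fold, DNAJB9 1.64-fold and XBP1 1.28-fold lower. CALR was higher, at 759, 712 and 711 CPM in untreated cells and 1013, 1135 and 1063 CPM with CHIR99021 and BMP4, a difference of 1.47-fold without overlap (log2 0.56 ± 0.07, adjusted p = 1.35e-06). EDEM1, PDIA6 and HSP90B1 were 1.25-fold, 1.22-fold and 1.18-fold higher. With and without untreated replicate 1 the log2 differences were -0.65 and -0.34 for HERPUD1, -0.72 and -0.74 for DNAJB9, -0.36 and -0.24 for XBP1, 0.56 and 0.59 for CALR, 0.32 and 0.31 for EDEM1, 0.29 and 0.26 for PDIA6 and 0.24 and 0.20 for HSP90B1. HSPA5 had a log2 difference of -0.04 ± 0.08 and was not called.

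Whether RA altered the effect of CHIR99021 with BMP4 was tested by the other interaction term. It was called for 26 of the 38 genes, 68.4% against 53.4% of all tested genes (25.5% higher and 27.9% lower), with the effect lower after RA for 21 and higher for 5, and medians of -0.68 and 0.00. On log2 TPM, where the median of all genes was -0.20, the split was 25 lower and 2 higher. In the ATF6 arm 9 of 10 genes were called, all lower after RA. CALR, EDEM1, PDIA6 and HSP90B1 were called in opposite directions, higher with CHIR99021 and BMP4 without RA and lower after it. For CALR the effects were 0.56 and -0.58, and the interaction was -1.13 ± 0.10 (adjusted p = 4.01e-09). For HSPA5 the interaction was -1.0 ± 0.11, for ATF3 -1.90 ± 0.27, for VLDLR -2.25 ± 0.17, for PPP1R15A -1.31 ± 0.14 and for EIF2AK3 -1.12 ± 0.11. Without untreated replicate 1 of day 9 these interactions were -1.16 for CALR, -1.08 for HSPA5, -2.06 for ATF3, -2.39 for VLDLR, -1.40 for PPP1R15A and -1.11 for EIF2AK3.

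The 5 genes with the effect higher after RA were ASNS (1.58 ± 0.38), PSAT1 (1.44 ± 0.36), MTHFD2 (0.67 ± 0.19), PHGDH (0.60 ± 0.15) and CEBPG (0.53 ± 0.11). Each was lower with CHIR99021 and BMP4 in cells without RA and not called after RA. Without untreated day 9 replicate 1 these interactions were 1.23 for ASNS, 0.93 for PSAT1, 0.45 for MTHFD2, 0.45 for PHGDH and 0.45 for CEBPG, and the counts were 25 lower and 5 higher. In the same fit the effect on ASNS in cells without RA was -0.71 and not called (adjusted p = 0.102). Of the marker lists, 4 of 5 cardiac, 4 of 5 tested hepatocyte and secretory and 3 of 5 mesenchyme markers had an interaction called lower after RA, and their part was not tested. Of the 26 calls 24 held whichever library was left out, and those of ATF5 and SLC3A2 did not. With the pseudogene share as a covariate edgeR called 0 of 38 (9 at an unadjusted p below 0.05).

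Between day 6 and day 9 without treatment 9 genes were higher at day 9 and 11 lower, 52.6% against 46.9% of all tested genes (24% higher and 22.9% lower), with medians of -0.13 and 0.00. In the ATF4 arm 7 were higher and 3 lower, and in the ATF6 arm 1 was higher and 6 were lower. Of the 7 higher ATF4-arm genes, 6 were not called without untreated day 9 replicate 1. These were CEBPB, ASNS, MTHFD2, TRIB3, SESN2 and VLDLR (adjusted p = 0.0549 to 0.659), so the higher calls of this arm rested largely on that library. HYOU1, an ER chaperone that acts with BiP, read 602, 509 and 531 CPM at day 6 and 331, 271 and 275 CPM at day 9, 1.87-fold lower without overlap (adjusted p = 5.36e-09). PPP1R15A was 1.62-fold, MANF 1.55-fold and HSPA5 1.29-fold lower. ATF3 was 1.91-fold and VLDLR 1.32-fold higher. With and without untreated day 9 replicate 1 the log2 differences were -0.90 and -1.01 for HYOU1, -0.70 and -0.78 for PPP1R15A, -0.63 and -0.77 for MANF, -0.37 and -0.44 for HSPA5, 0.94 and 0.77 for ATF3 and 0.40 and 0.25 for VLDLR. Of the 20 calls 10 held whichever library was left out, and that of VLDLR did not (adjusted p = 0.0681 without that replicate). Of 5 endoderm markers 4 were lower at day 9 and 1 higher, and all 3 tested pluripotency markers were lower, and their part was not tested. Without untreated day 9 replicate 1 the split was 3 higher and 17 lower, and on log2 TPM, where the median of all genes was -0.15, it was 1 higher and 19 lower. With the pseudogene share as a covariate 12 genes were called, 2 higher and 10 lower.

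Near copies of some panel genes could share reads with them. The pseudogenes PSAT1P3, MTHFD2P7 and HSPA5P1 reached at least 1 CPM in some group, with group means of 5.06 to 16.2, 2.94 to 7.65 and 8.53 to 23.7 CPM. Values of PSAT1, MTHFD2 and HSPA5 are uncertain to the extent that reads were divided between copies.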

How the data were processed

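TruSeq stranded mRNA libraries of total RNA were made, per the labels' protocols. The submitters' processing notes name STAR 2.7.9 and GRCh38. How genes were counted, with which annotation and strand setting, is not given in the sources used here. Overlapping and antisense genes are therefore uncertain. The authors deposited raw counts per gene and TPM for the 18 samples. TPM equalled counts divided by length and rescaled in 7718 genes of over 100 counts in every library, with a largest log2 residual of 7.98e-10. Groups came from the sample labels, and the members and all gene lists were chosen with earlier results of these data known.

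Counts of all 18 libraries were fitted in R 4.3.3 with edgeR 4.0.16 (filterByExpr with a minimum count of 10, TMM factors, glmQLFit, 6 group means), and contrasts were tested by glmQLFTest with Benjamini-Hochberg adjustment over 15531 genes and a threshold of 0.05. SE is the absolute log2 difference over the square root of F. Alternatives were DESeq2 1.42.0, limma 3.58.1 on log2 TPM plus 1 or 0.1, RLE factors, no filter, the compared groups alone, a replicate block, the pseudogene share as a covariate and each library left out. The steps were tested on simulated data. All 38 genes could be named, with up to 8 rises and 8 falls per comparison and, from other lists, up to 3 called genes of at least 5 CPM in the higher group. Rows without a symbol were under 0.002% of counts. Promoters were scanned in Python 3.11.15.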

Additional observations from a re-analysis of the deposited data

Results flagged for a closer look

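These differences between responses were each tested by an interaction term (edgeR quasi-likelihood test, Benjamini-Hochberg adjusted p below 0.05) and are given for up to 8 genes with the largest values in each direction. Both interactions use the same untreated and RA-treated libraries of day 9, so they are not independent of each other.

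The response to CHIR99021 with BMP4 differed between cells with and without RA for 26 of the 38 genes (68.4%, against 53.4% of all tested genes). It was higher after RA, in log2 difference, by 1.58 for ASNS, 1.44 for PSAT1, 0.67 for MTHFD2, 0.60 for PHGDH and 0.53 for CEBPG. The same interaction was -2.25 for VLDLR, -1.90 for ATF3, -1.31 for PPP1R15A, -1.13 for CALR, -1.12 for EIF2AK3, -1.06 for MANF, -1.03 for DNAJC3 and -1.0 for HSPA5. Leaving out replicate 1 of untreated day 9, which stood apart in its group, gave 1.23 for ASNS, 0.93 for PSAT1, 0.45 for MTHFD2, 0.45 for PHGDH and 0.45 for CEBPG, and -2.39 for VLDLR, -2.06 for ATF3, -1.40 for PPP1R15A, -1.16 for CALR, -1.11 for EIF2AK3, -1.20 for MANF, -1.12 for DNAJC3 and -1.08 for HSPA5. The untreated group enters each of these values, and the cause of the differences was not tested.

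The response to RA differed between day 6 and day 9 for 27 of the 38 genes (71.1%, against 50.9% of all tested genes). The difference, day 9 minus day 6, was 2.03 for ATF5, 1.85 for ATF3, 1.81 for VLDLR, 1.54 for MANF, 1.43 for PPP1R15A, 1.38 for ERN1, 1.36 for DDIT3 and 1.07 for TRIB3. Leaving out that same library gave 2.36 for ATF5, 2.01 for ATF3, 1.96 for VLDLR, 1.68 for MANF, 1.51 for PPP1R15A, 1.43 for ERN1, 1.63 for DDIT3 and 1.21 for TRIB3.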

How the results depend on the processing

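Of 210 calls of panel genes over 9 comparisons, DESeq2 kept 205, RLE factors 207, no filter on low counts 194, fits of the compared groups alone 196 and limma on log2 TPM 181, with 26 lost and 3 reversed. The reversed calls were, with 1 or 0.1 added to the TPM, PHGDH (0.10 and 0.10) and XBP1 (0.089 and 0.090) for RA at day 9, and PPP1R15A (0.0025 and 0.0027) for CHIR99021 with BMP4 without RA. The pseudogene share as a covariate kept 111, lost 71 and reversed 28. Of those kept, 29, 29 and 18 were in the 3 comparisons among treated libraries, where the share hardly varied. RA by day, where it largely cancels, had 24, and days without treatment 11. The fit therefore could not test most of the kept calls. With the covariate the count of called genes became 0 for RA at day 6, 0 for RA at day 9, 0 for CHIR99021 with BMP4 without RA, 0 for RA by CHIR99021 and BMP4 and 12 for day 9 against day 6 without treatment, with 3, 8, 2, 9 and 17 at an unadjusted p below 0.05 by edgeR. Within groups the share ranged widely in untreated day 6 alone. The covariate was therefore fitted mainly from those libraries. Reversed values under it were, for RA at day 6, ATF4 0.40, PSAT1 0.33, TRIB3 1.09, XBP1 1.04, SEL1L -0.39, HSPA5 0.41, PDIA4 0.81 and MANF 0.71. For RA at day 9 they were PSAT1 0.58, XBP1 2.02, SEL1L -0.47, CALR -0.16 and CRELD2 -2.57. For CHIR99021 with BMP4 without RA they were ATF4 0.51, ATF3 1.73, CEBPG 0.50, ASNS 0.92, PSAT1 0.38, MTHFD2 0.42, CHAC1 5.61, TRIB3 0.94, PPP1R15A 0.71 and XBP1 1.90. For RA by CHIR99021 and BMP4 they were CEBPG -0.42, ASNS -0.42, MTHFD2 -0.71, ERN1 0.21 and CRELD2 2.49. The cause was not tested. Counts with 1 library left out ran from 16 to 20 for RA at day 6, 22 to 28 at day 9, 18 to 23 and 28 to 31 for CHIR99021 with BMP4 without and after RA, 14 to 21 for RA before it, 16 to 20 and 24 to 30 between days without and after RA, 24 to 30 for RA by CHIR99021 and BMP4 and 21 to 31 for RA by day. Same-numbered libraries of different groups had correlations of deviations from -0.11 to 0.23. Differently numbered libraries were not compared, so these values cannot decide whether the numbers pair the samples. The fit with a replicate block gave 16, 24, 21, 29, 18, 20, 29, 27 and 26 called genes in the order RA at day 6, RA at day 9, CHIR99021 with BMP4 without and after RA, RA before it, days without and after RA, RA by CHIR99021 and BMP4 and RA by day, and 38 for any difference, and it kept 207 of the 210 calls. Depth limits CEBPB, ASNS, CHAC1 and SDF2L1, whose group means stayed under 10 CPM.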

Other observations

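Cytosolic heat shock genes, which answer to HSF1 and not to the ER sensors, were also counted. After RA, 7 of 10 fell and none rose with CHIR99021 and BMP4 at day 9, against 32.3% of all tested genes that fell and 32.1% that rose. HSPB1 had the largest change, from 327, 203 and 228 CPM after RA alone to 15.2, 12.2 and 11.9 CPM (log2 -4.23), and the co-chaperone gene BAG3 fell by 1.69 on the log2 scale. Between day 6 and day 9 after RA HSPB1 rose by 4.35 and BAG3 by 1.41, 2 of 3 genes of that list that rose, and DNAJB1 fell by 0.48 (1.4-fold), against 28.5% of all tested genes that rose and 30.3% that fell. Among cells given CHIR99021 with BMP4, 5 of the 10 were higher after RA and 4 lower, against 21.2% and 22.1% of all tested genes, with HSPH1 at 0.86. The cardiac and mesenchyme marker sums were high in the same RA-treated day 9 libraries, and their part was not tested.

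Further targets of the integrated stress response did not share 1 direction. Between day 6 and day 9 after RA, 2 of 8 tested rose and 4 fell (28.5% and 30.3% of all tested genes), and VEGFA went from 1985, 1814 and 1673 CPM to 162, 171 and 194 CPM (log2 -3.38) while DDIT4 rose by 1.37. At day 6, RA-treated cells had 6 of 8 higher than untreated cells and 1 lower (25.3% and 23.4% of all tested genes), led by STC2, at 37.1, 27.4 and 17.6 CPM without and 187, 199 and 216 CPM with RA (log2 2.89), in the libraries where ATF4 was lower. Of 12 genes for the other eIF2 kinases, eIF2 and its exchange factor, 1 was higher and 1 lower in cells given CHIR99021 with BMP4 after RA against without RA, where 43.3% of all tested genes were called. In a list of targets of the oxidative stress factor NRF2, 4 of 6 tested genes were higher with RA at day 6 and 1 was lower. The shares over all tested genes were 25.3% and 23.4%. HMOX1 had the largest log2 difference of that list, 3.32, from 3.14 ± 0.491 to 30.8 ± 4.85 CPM. These day 6 values compare untreated with treated cells, which also differed in the pseudogene share.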
